A study of Mus musculus with 4 samples.

Results

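Oxidative phosphorylation is the work of the respiratory chain and the ATP synthase in the inner mitochondrial membrane. Complex I takes electrons from NADH and complex II takes them from succinate, complex III passes them to cytochrome c, complex IV hands them to oxygen, and complex V uses the resulting proton gradient to make ATP. Several subunits of complex IV exist as isoforms from separate genes, a common form and a form known from heart, skeletal muscle or testis, so that the make-up of the enzyme can differ between tissues. The genes described here were chosen by symbol alone, with names beginning Nduf, Cox4 to Cox8, Atp5, Uqcr and Sdh, plus Cycs, and 88 of the 14519 genes in the deposited table met that rule. They comprised 43 genes of complex I, 4 of complex II, 8 of complex III, 1 for cytochrome c, 15 of complex IV and 17 of complex V. Of these 88, 78 code for subunits or cytochrome c and 10 for factors that are not subunits: Ndufaf1 to Ndufaf7, Cox7a2l, Atp5s and Atp5sl. The 13 subunits encoded by mitochondrial DNA were not analysed here.

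RNA came from cells sorted from mouse colonic epithelium by fluorescent reporters. Cells carrying Reg4-dsRed were the Reg4+ DCS cells, deep crypt secretory cells of goblet type, and cells carrying Lgr5-GFP were the Lgr5+ cells, the stem cells of the crypt base. There were 2 libraries of each, made by CEL-seq, which reads the 3′ ends of RNA, and the labels and design text used here give no strain, age or treatment. The separate sorts are described as biological replicates, and a p-value here measures only the spread between such replicates. For each gene limma and edgeR draw that spread in part from the other tested genes. Expression is given as RPM, the reads of a gene per 1000000 reads of the library. Because CEL-seq tags the end of each transcript, RPM did not scale with gene length and was read as the level per transcript.

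The Lgr5+ libraries held 5205723 and 7955340 reads in genes. Each column of the Reg4+ DCS cells decoded as the average of 2 parts scaled apart, with 5523304 and 1890960 reads in replicate 1 and 3004289 and 2443971 reads in replicate 2, so its spread is one of averages. Reg4 was at 6187 and 5899 RPM in Reg4+ DCS cells against 796 and 363 RPM in Lgr5+ cells, and Lgr5 at 0.989 and 3.13 against 46.5 and 48.8 RPM. All 8 goblet markers were called higher in Reg4+ DCS cells. Of 5 epithelial markers, Epcam, Cdh1, Krt8 and Krt18 were abundant in all 4 libraries. The other, Krt20, stood at 27.2 and 7.43 RPM in Reg4+ DCS cells against 86.3 and 17.0 RPM in Lgr5+ cells. Summed over each list, tuft, colonocyte and leukocyte markers were higher in both Lgr5+ libraries and highest in replicate 1. The 4 tuft cell markers summed to 752 and 223 RPM in Lgr5+ cells against 2.30 and 1.98 in Reg4+ DCS cells. The 6 colonocyte markers summed to 752 and 131 against 88.9 and 37.9, and 5 leukocyte markers to 47.1 and 14.2 against 1.27 and 0.999. Enteroendocrine markers summed to 70.1 and 30.3 RPM in Lgr5+ cells against 16.9 and 25.5 RPM in Reg4+ DCS cells. Single markers did not all follow the sums. The colonocyte markers Krt20 and Ceacam20 overlapped between groups, and the leukocyte marker Cd79a was higher in Lgr5+ replicate 2 than in replicate 1. Ptprc made up most of the leukocyte sum and had a value of 0 in Reg4+ DCS cells, while the 4 stromal markers matched summed to at most 5.57 RPM anywhere. Alas2, the erythrocyte marker matched, stood at 0.453 and 0.166 RPM in Reg4+ DCS cells and at 0 in Lgr5+ cells. The part of these cells in the results was not tested, and without Lgr5+ replicate 1 the counts below became 7 members higher in Lgr5+ cells and 1 higher in Reg4+ DCS cells.

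Few respiratory genes passed the test for a difference between the populations, and the 2 with the largest log2 fold changes were isoforms of complex IV. Cox7a1, the isoform of subunit VIIa known from heart and skeletal muscle, was called higher in Reg4+ DCS cells. Cox6b2, the isoform of subunit VIb known from testis, was called higher in Lgr5+ cells. So were 4 of 7 complex I assembly factors, against 26.9% of all tested genes. The number of these factors was 2 after median-of-ratios scaling and 2 in edgeR, alternatives given below. Of the 88 members 87 passed the filter on low values (5 RPM or more in 2 or more libraries), and Cox8b did not. In limma, with p-values adjusted by the Benjamini-Hochberg method over all 10183 genes tested and a call at an adjusted p under 0.05, 10 members were higher in Lgr5+ cells and 1 was higher in Reg4+ DCS cells. These are 11.5% and 1.15% of the members tested, where 26.9% and 7.18% of all tested genes were called in these directions. The number of members higher in Lgr5+ cells fell to 4 without either Reg4+ DCS library and to 5 without Lgr5+ replicate 2.

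The split between directions turned with the scaling of the libraries. The median log2 fold change (Reg4+ DCS minus Lgr5+, on log2(RPM + 1)) of the deposited values was −0.47 over all tested genes and −0.25 over the 87 members, and median-of-ratios scaling moved these medians to 0.02 and 0.26. Under that scaling 4 members were called higher in Lgr5+ cells and 9 higher in Reg4+ DCS cells, where 12.7% and 15.6% of all genes were. In edgeR, on reads recovered from the RPM steps, the counts were 4 and 4, against 13.4% and 13.7% of all genes. Those called higher in Lgr5+ cells included Cox6b2, Ndufaf6 and Ndufaf2 in each of these alternatives, and Cox7a1 passed in each as higher in Reg4+ DCS cells. For 45 members both Lgr5+ libraries lay above both Reg4+ DCS libraries, and for 9 tested members the order was opposite, which is 51.7% and 10.3% of the members against 56.2% and 16.1% of all genes. Genes with a mean of at least 100 RPM, a threshold chosen after the values were seen, had a median log2 fold change of −0.22 over 1582 genes. This was close to the −0.25 of the members, whose own median level was 215 RPM. With a threshold of 50 RPM the median was −0.31 over 3229 genes. Calls were less alike: of the 1582 genes 346 were called higher in Lgr5+ cells and 262 higher in Reg4+ DCS cells in limma.

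**Figure D1:**
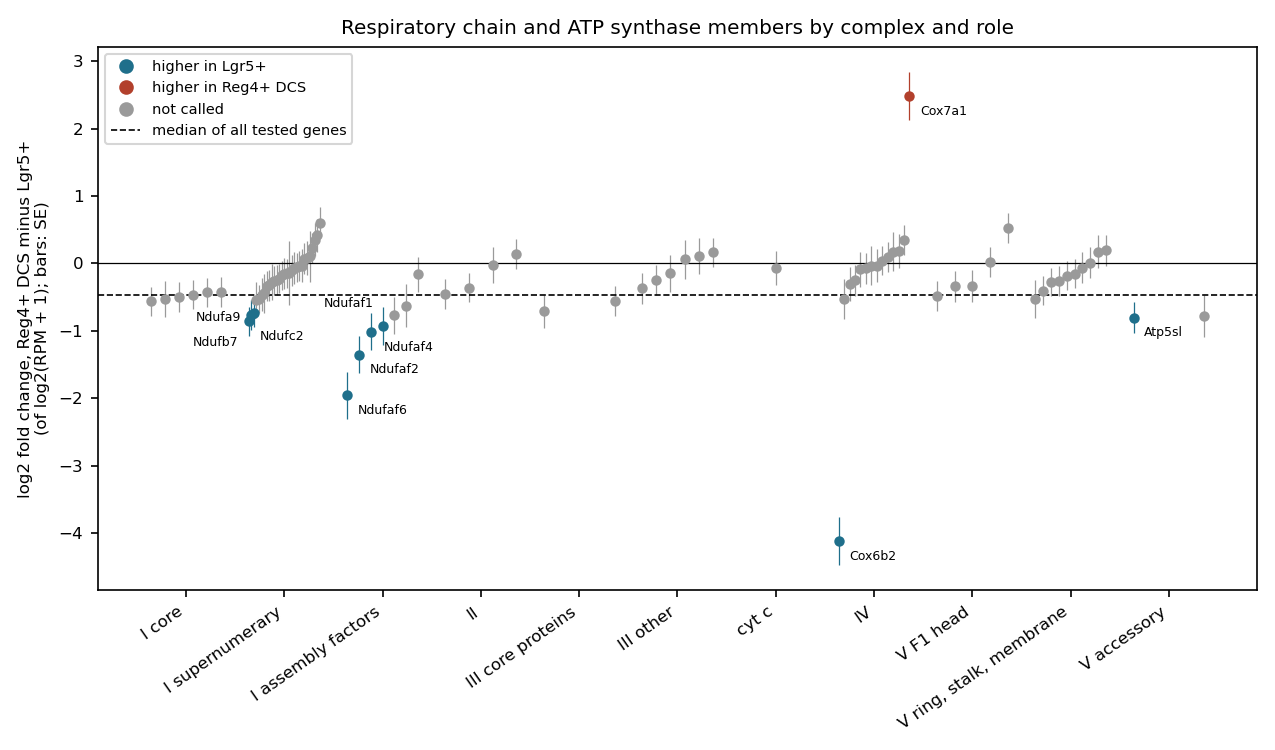
Log2 fold change (Reg4+ DCS minus Lgr5+, of log2(RPM + 1)) of the tested members that are reported here, 1 point per gene with its standard error, grouped along the horizontal axis by complex and role. Coloured points are the genes called at an adjusted p under 0.05, with Cox7a1 at 2.48 and Cox6b2 at −4.12 farthest from the rest, and the dashed line is the median of all tested genes at −0.47, which moves to 0.02 under median-of-ratios scaling.

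Summed over all members, the libraries of Reg4+ DCS cells held 24829 and 24119.6 RPM and those of Lgr5+ cells 26873 and 27169 RPM, or 2.41% to 2.72% of each library. The summed level was thus 0.906 times as high in Reg4+ DCS as in Lgr5+ cells on the RPM scale, with the groups apart. In such bulk samples, fewer cells with a transcript and less of it per cell cannot be told apart. Complex IV had the highest sum in 3 of 4 libraries (complex V had it in Lgr5+ replicate 2) and stood at 8100.3 and 7688 RPM in Reg4+ DCS cells against 7790.5 and 8056 RPM in Lgr5+ cells. Its groups overlapped, and the ratio was 0.996. Complex I summed to 6292 and 6152 RPM in Reg4+ DCS cells against 7519.99 and 7092 RPM in Lgr5+ cells, a ratio of 0.852 with the groups apart. Complex V summed to 6987 and 6929 against 7743 and 8069 RPM, a ratio of 0.880, and complex III to 2632 and 2542 against 2804 and 3173 RPM, a ratio of 0.865, both with the groups apart. Complex II summed to 526 and 546 against 660.4 and 539 RPM, so that its groups overlapped. No test was made between complexes. The median log2 fold change of each was below 0 on the RPM scale (I −0.32, II −0.19, III −0.20, IV −0.03, V −0.26) and above 0 after median-of-ratios scaling (0.18, 0.31, 0.31, 0.47 and 0.25). These sums and medians include the factors that are not subunits. Without its 7 assembly factors complex I had a median of −0.25, or 0.26 after median-of-ratios scaling.

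**Figure D2:**
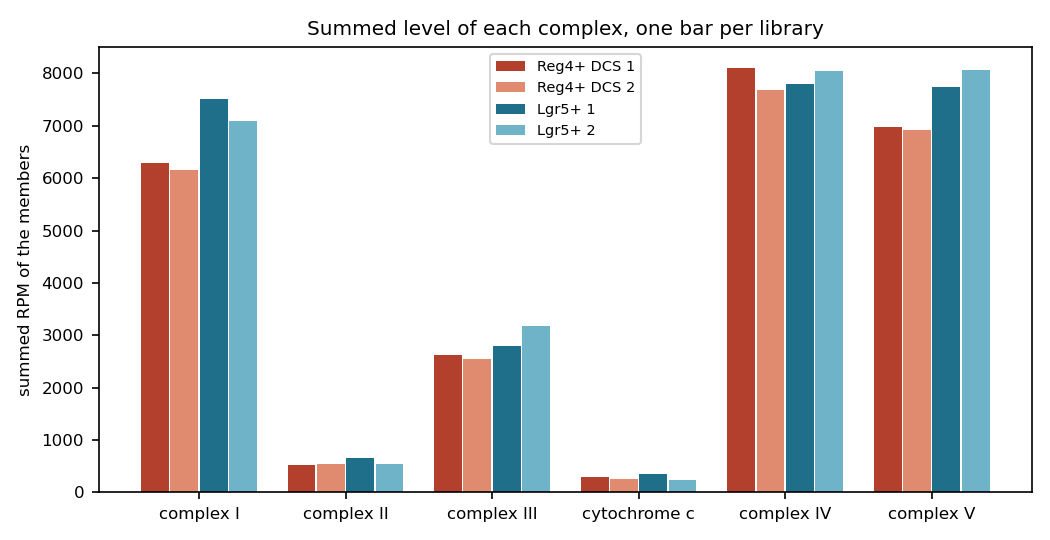
Summed RPM of the members of each complex and of cytochrome c, 1 bar per library, on an axis that starts at 0. The 4 bars of complex IV lie between 7688 and 8100.3 RPM with both groups mixed, and in complexes I, III and V both Lgr5+ bars stand above both Reg4+ DCS bars.

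Complex IV, cytochrome c oxidase, held the 2 tested members with the largest log2 fold changes in size. In Reg4+ DCS cells Cox7a1 stood at 74.0 and 111 RPM, and in Lgr5+ cells at 21.5 and 10.9 RPM. Both Reg4+ DCS libraries were above both Lgr5+ libraries, and its mean was 5.70 times as high (92.5 ± 26.2 RPM against 16.2 ± 7.48, SD, n = 2 per group). In limma the log2 fold change was 2.48 with a standard error of 0.36 (adjusted p = 0.00201), and it lay between 2.03 and 2.94 without any 1 library, with the call kept in all 4 such fits. The 4 separately scaled parts within the Reg4+ DCS columns gave 83.5, 64.5, 117 and 106 RPM, so each part was above both Lgr5+ libraries. Cox7a2, the widely expressed isoform of the same subunit, stood at 445 and 382 RPM against 342 and 306 RPM and did not pass the test (log2 fold change 0.35, adjusted p = 0.247 in limma), though it was called higher in Reg4+ DCS cells with median-of-ratios scaling and in edgeR. Cox7a1 made up 14.3% and 22.5% of the summed RPM of both isoforms in Reg4+ DCS cells and 5.92% and 3.45% in Lgr5+ cells, a ratio within each library that no scaling changes. With 2 libraries per group an exact two-sided permutation test of a share cannot go below p = 0.333, which is its value here.

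Cox7a1 lies at chr7:30184144-30186078 on the + strand and Cox7a2 at chr9:79755361-79759878 on the − strand (GENCODE, build mm10), and neither overlaps another annotated gene. The 110 bases upstream of the start of each are shown because only Cox7a1 of these isoforms of 1 subunit was called on the RPM scale. They are from RefSeq, build GRCm38.p6, written 5′ to 3′ along the strand of the gene, with a CCAAT box (read as ATTGG on the other strand) or an Sp1 box (GGGCGG) in capitals.
Cox7a1, chr7:30184034-30184143 (+ strand): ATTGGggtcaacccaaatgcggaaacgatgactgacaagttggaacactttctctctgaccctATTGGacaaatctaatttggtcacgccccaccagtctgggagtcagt
Cox7a2, chr9:79759879-79759988 (- strand): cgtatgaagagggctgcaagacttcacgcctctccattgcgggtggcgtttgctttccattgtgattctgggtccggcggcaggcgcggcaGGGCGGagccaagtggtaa
The Cox7a1 stretch holds 2 CCAAT boxes, both on the opposite strand, and has a GC content of 48.2%. The Cox7a2 stretch holds 1 Sp1 box and has a GC content of 60.9%.

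Cox6b2 showed the opposite pattern. Reg4+ DCS replicates 1 and 2 held 0.0905 and 0.166 RPM of it, which is 1 read in each, and Lgr5+ replicates 1 and 2 held 15.2 and 22.6 RPM. Over both libraries of a group there were 2 reads against 259, a ratio of 127 per read sequenced with an exact 95% interval of 34.7 to 1051 that covers counting error only. In limma the log2 fold change was −4.12 with a standard error of 0.36 (adjusted p = 0.00025), on a scale that the pseudocount of 1 RPM limits. It was called in both fits that left out a Reg4+ DCS library, and was not tested without either Lgr5+ library, since it then missed the filter. Cox6b2 was higher in Lgr5+ replicate 2 than in replicate 1, and the summed tuft, colonocyte and leukocyte markers were higher in replicate 1. These marker sums were also higher in both Lgr5+ libraries than in both Reg4+ DCS libraries. The part of such cells in the Cox6b2 values was not tested. Cox6b1, the common isoform, stood at 456 and 476 RPM against 449 and 536 RPM with overlapping groups (log2 fold change −0.07, adjusted p = 0.817 in limma). Cox6b2 thus made up 0.0198% and 0.0349% of the summed RPM of both isoforms in Reg4+ DCS cells and 3.27% and 4.05% in Lgr5+ cells.

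Cox6b2 lies at chr7:4751792-4753094 and Cox6b1 at chr7:30616861-30626151, both on the − strand. Their upstream stretches are given in the same way, for an isoform with next to no reads in 1 population and for its common counterpart, with the CCAAT box in capitals.
Cox6b2, chr7:4753095-4753204 (- strand): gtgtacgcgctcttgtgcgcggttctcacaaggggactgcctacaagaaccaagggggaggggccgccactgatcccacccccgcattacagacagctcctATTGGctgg
Cox6b1, chr7:30626152-30626261 (- strand): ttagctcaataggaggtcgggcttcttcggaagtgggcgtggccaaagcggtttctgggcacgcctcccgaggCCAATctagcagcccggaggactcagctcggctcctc
Each of the 2 stretches holds 1 CCAAT box, on the opposite strand in Cox6b2 and on the strand of the gene in Cox6b1. The GC content was 61.8% for Cox6b2 and 62.7% for Cox6b1.

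Cox8b, the isoform of subunit VIII known from heart, skeletal muscle and brown fat, stood at 1.80 and 8.56 RPM in Reg4+ DCS cells (16 and 48 reads) and was listed at 0 in both Lgr5+ libraries. A count of 0 there allows up to 0.576 and 0.377 RPM, the worth of 3 reads. The filter kept it out of the main test, and without a filter its adjusted p in limma was 0.0366. It made up 0.134% and 0.853% of the summed RPM of Cox8a and Cox8b in Reg4+ DCS cells. Cox8a, the common isoform, stood at 1341 and 995 RPM against 1096 and 942 RPM with overlapping groups (log2 fold change 0.18, adjusted p = 0.597 in limma). Of 6 smooth and skeletal muscle markers only Des was matched in the table. It stood at 1.79 and 1.45 RPM in Reg4+ DCS cells and was listed at 0 in Lgr5+ cells. Des was thus on the same side as Cox7a1 and Cox8b between the groups. Within Reg4+ DCS cells Des was lower in replicate 2, while Cox7a1 and Cox8b were higher there. The part of muscle cells in these results was not tested.

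Cox8b lies at chr7:140898945-140900446 and Cox8a at chr19:7215153-7217616, both on the − strand. Their upstream stretches are shown as those of an isoform listed at 0 in the Lgr5+ cells and of the common form, with an E box (CAGCTG) in capitals.
Cox8b, chr7:140900447-140900556 (- strand): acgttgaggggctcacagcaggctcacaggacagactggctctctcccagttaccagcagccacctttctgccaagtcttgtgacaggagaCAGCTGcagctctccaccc
Cox8a, chr19:7217617-7217726 (- strand): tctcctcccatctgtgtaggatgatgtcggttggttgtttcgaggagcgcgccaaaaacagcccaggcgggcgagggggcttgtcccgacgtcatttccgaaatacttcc
The Cox8b stretch holds 1 E box and has a GC content of 59.1%, while in the Cox8a stretch, with a GC content of 57.3%, none of the motifs searched was found.

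**Figure D3:**
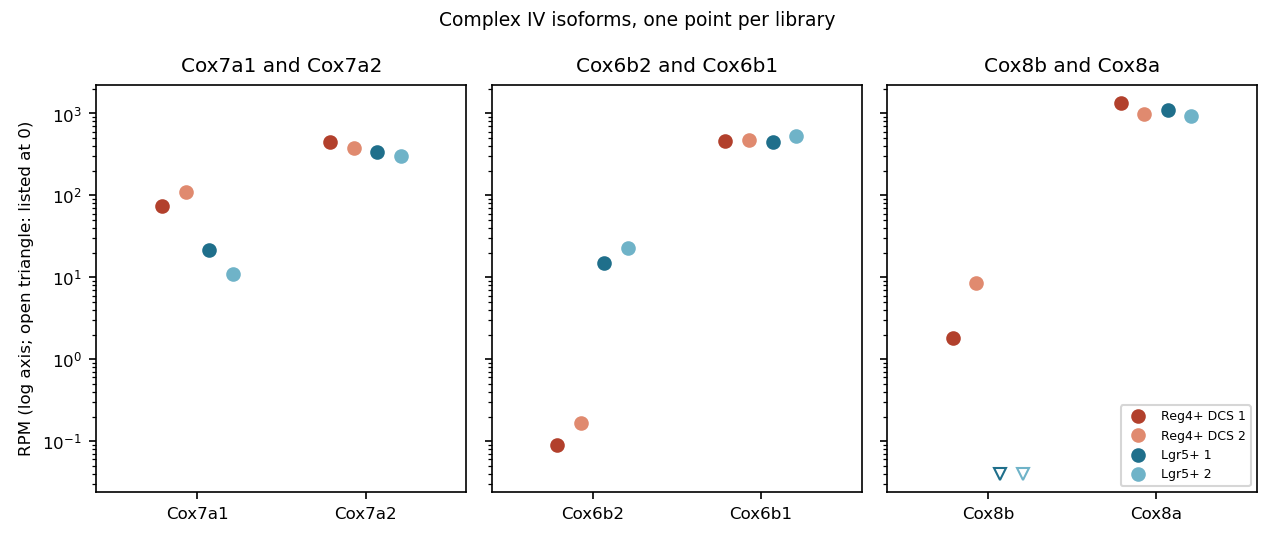
RPM on a log axis of 3 isoform pairs of complex IV, 1 point per library, with open triangles for values listed at 0. Cox7a1 and Cox8b are higher in both Reg4+ DCS libraries and Cox6b2 in both Lgr5+ libraries, while the points of the common isoforms Cox6b1 and Cox8a overlap between groups.

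The remaining subunits of complex IV had smaller fold changes and none was called on the RPM scale. Cox6c, the most abundant member of all, stood at 1380.2 and 1637 RPM in Reg4+ DCS cells against 1579 and 1499.9 RPM in Lgr5+ cells, with the groups overlapping. Cox4i1, a regulatory subunit that binds ATP, stood at 1026 and 875 RPM against 1021 and 1339 RPM, also with overlap (log2 fold change −0.30, adjusted p = 0.373 in limma). Cox6a1 stood at 383 and 434 RPM against 396 and 397 RPM, and Cox7b at 539 and 540.0 RPM against 542 and 470.4 RPM. Ndufa4, once counted with complex I and now with complex IV, stood at 556 and 402 RPM against 434 and 584 RPM. Of the 14 tested genes of this complex 10 had overlapping groups, against 2820 of 10183 over all tested genes. Log2 fold changes in the complex, other than those of Cox7a1 and Cox6b2, lay between −0.53 and 0.35. The lower end of that range was Cox7a2l, a factor that joins complexes III and IV into supercomplexes, at 177 and 237 RPM against 231 and 380.5 RPM. Its adjusted p was 0.188, and it was called higher in Lgr5+ cells only in the fit without Lgr5+ replicate 1. Cox4i2, Cox6a2, Cox7b2 and Cox8c, the other isoforms of this complex, were not analysed here.

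Complex I, NADH dehydrogenase, held 8 of the 10 members called higher in Lgr5+ cells, and 4 of these 8 were assembly factors. The complex had 43 tested genes, and 26.9% of all tested genes were called in this direction. After median-of-ratios scaling 3 of the 43 were called higher in Lgr5+ cells and 4 higher in Reg4+ DCS cells. Of all tested genes 12.7% and 15.6% were called so under that scaling. Ndufaf6, which is needed to assemble the complex, stood at 3.12 and 5.03 RPM in Reg4+ DCS cells and at 15.8 and 21.4 RPM in Lgr5+ cells. Its mean was 4.56 times as high in Lgr5+ cells (log2 fold change −1.96, standard error 0.35, adjusted p = 0.00463 in limma). Ndufaf2, a chaperone that sits on the unfinished complex in place of Ndufa12, stood at 12.9 and 16.3 RPM against 39.2 and 38.1 RPM, 2.65 times as high in Lgr5+ cells (log2 fold change −1.35, standard error 0.27, adjusted p = 0.00778 in limma). Both kept their call without any 1 library, after median-of-ratios scaling and in edgeR. Ndufaf4 stood at 16.9 and 15.7 RPM against 30.4 and 38.0 RPM (log2 fold change −1.01, adjusted p = 0.0240 in limma) and Ndufaf1, part of an early assembly complex with Ecsit, at 14.0 and 11.7 RPM against 24.4 and 26.0 RPM (log2 fold change −0.92, adjusted p = 0.0362 in limma). These calls were lost after median-of-ratios scaling, where the adjusted p became 0.179 and 0.268, and in edgeR. Ndufaf1 also lost it without each library in turn, and Ndufaf4 without each library other than Lgr5+ replicate 1.

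Of the other assembly factors none was called. Ndufaf3, the partner of Ndufaf4, stood at 12.2 and 13.3 RPM in Reg4+ DCS cells against 22.3 and 22.8 RPM in Lgr5+ cells with an adjusted p of 0.0613 in limma. Ndufaf5, which modifies the core subunit Ndufs7, stood at 8.74 and 8.09 RPM against 16.3 and 11.2 RPM. Ndufaf7, a methyltransferase, stood at 27.5 and 29.8 RPM against 34.96 and 29.5 RPM and was the one factor of this group with overlapping libraries. Over the 7 assembly factors the summed level was 95.5 and 99.95 RPM against 183 and 187 RPM, 0.528 times as high in Reg4+ DCS cells. Their median log2 fold change was −0.92 on the RPM scale and −0.44 after median-of-ratios scaling, against −0.47 and 0.02 over all genes. With levels between 11.1 and 30.5 RPM they were also the lowest group of complex I other than Ndufs5.

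The 7 nuclear core subunits of complex I carry the flavin and the iron-sulfur clusters along which electrons run. In each of them both Lgr5+ libraries lay above both Reg4+ DCS libraries, as they did for 56.2% of all tested genes. The summed level of the 7 was 759 and 827 RPM in Reg4+ DCS cells against 1203 and 1188 RPM in Lgr5+ cells. The sum was 0.663 times as high in Reg4+ DCS cells on the RPM scale. Over this group the median log2 fold change was −0.50, close to the −0.47 of all genes, and after median-of-ratios scaling it was 0.01 against 0.02. Ndufv1, which binds the flavin and NADH, stood at 189 and 231 RPM against 295 and 298 RPM and did not pass the test (log2 fold change −0.50, adjusted p = 0.111 in limma). Among the assembly factors called above, Ndufaf2 overlaps Smim15 and B230220B15Rik on the other strand, and the sources used here do not give whether reads were counted by strand. Ndufaf6 overlaps no annotated gene.

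The supernumerary subunits of complex I surround this core and were more spread. Of 29 genes 3 were called higher in Lgr5+ cells, where 26.9% of all tested genes were. Ndufb7 stood at 92.4 and 101 RPM against 175 and 176 RPM (log2 fold change −0.85, adjusted p = 0.0189 in limma). Ndufa9 stood at 55.6 and 57.1 RPM against 98.9 and 93.4 RPM (−0.76, 0.0320), and Ndufc2 at 162 and 159.96 RPM against 291 and 247 RPM (−0.73, 0.0343). All 3 lost the call after median-of-ratios scaling, in edgeR and in each of the 4 fits without 1 library. At the other end, Ndufb2 stood at 253 and 276 RPM in Reg4+ DCS cells against 152 and 197 RPM in Lgr5+ cells. It had the highest log2 fold change of complex I at 0.61, with an adjusted p of 0.0742, and passed as higher in Reg4+ DCS cells after median-of-ratios scaling (adjusted p = 0.00957 in limma) and in edgeR (0.0215). Ndufb9, Ndufc1 and Ndufv3 also had both Reg4+ DCS libraries above both Lgr5+ libraries, with log2 fold changes of 0.23, 0.42 and 0.35. They were called under median-of-ratios scaling only. Of the 29 genes 4 were called higher in Reg4+ DCS cells under that scaling, where 15.6% of all genes were. The most abundant subunits, Ndufa2 (454 and 420.0 RPM against 466 and 504 RPM), Ndufa6 (409 and 369.6 against 378 and 421) and Ndufa1 (415 and 323 against 431 and 325), did not pass the test. Ndufs5 was the least abundant tested member, at 5.44 and 3.88 RPM against 5.57 and 3.14 RPM. In Ndufa10 the Lgr5+ libraries stood at 108 and 32.7 RPM, on either side of the Reg4+ DCS libraries at 53.1 and 54.2 RPM.

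**Figure D4:**
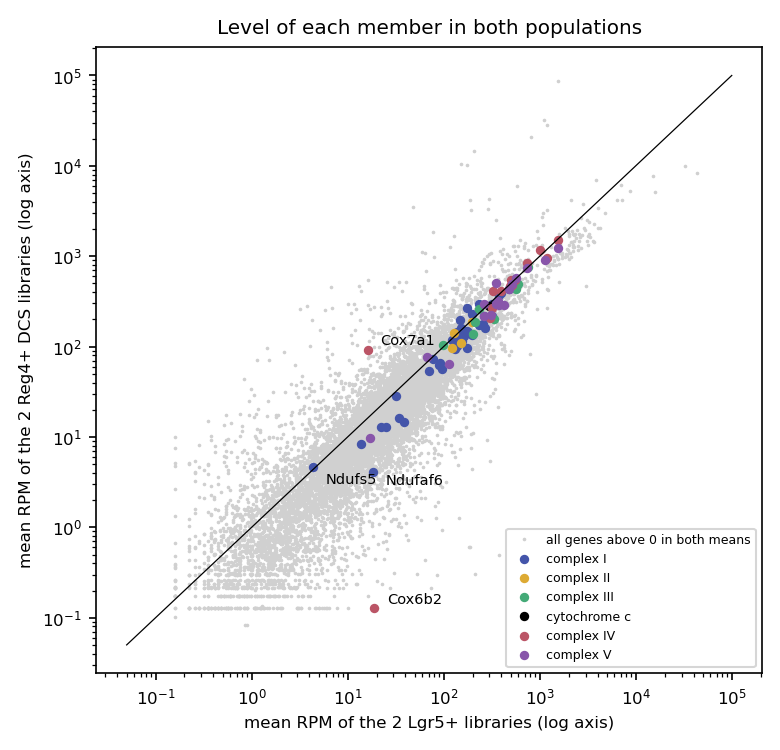
Mean RPM in Reg4+ DCS cells against mean RPM in Lgr5+ cells, both on log axes, 1 point per gene, with the members reported here coloured by complex over all genes above 0 in both groups in grey and a line of equal level. Members cluster along the line at the upper end of the genes, with Cox7a1 above it at 92.5 against 16.2 RPM and Cox6b2 and Ndufaf6 below it.

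Complex II, succinate dehydrogenase, had no called member. Sdha, the flavoprotein that binds succinate, stood at 89.4 and 102 RPM in Reg4+ DCS cells against 119 and 126.3 RPM in Lgr5+ cells, and Sdhb, the iron-sulfur subunit, at 117 and 104 RPM against 162 and 142 RPM, both with the Lgr5+ libraries above. The membrane anchors overlapped between groups: Sdhc stood at 187 and 188 RPM against 241 and 152 RPM, and Sdhd at 132 and 151 RPM against 138 and 118 RPM. The log2 fold changes were −0.36 for Sdha, −0.45 for Sdhb, −0.03 for Sdhc and 0.14 for Sdhd, with adjusted p-values in limma from 0.144 to 0.940, and Sdhd passed as higher in Reg4+ DCS cells with median-of-ratios scaling.

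Complex III, which passes electrons from ubiquinol to cytochrome c, had no called member either. Uqcrc1, a core protein, stood at 195 and 205 RPM in Reg4+ DCS cells against 275 and 389 RPM in Lgr5+ cells (log2 fold change −0.71, adjusted p = 0.0548 in limma), and it was called in the fit without Lgr5+ replicate 1. Its partner Uqcrc2 stood at 129.7 and 144 RPM against 219 and 186 RPM (−0.56, 0.0832). The small subunits were the most abundant: Uqcr11 stood at 829.5 and 699 RPM against 566 and 943 RPM, Uqcrh at 477 and 513 RPM against 609 and 568 RPM, and Uqcr10 at 459 and 409.6 RPM against 503 and 623 RPM. Uqcrq was the one member with both Reg4+ DCS libraries higher, at 269.8 and 256 RPM against 248 and 221 RPM (log2 fold change 0.16). Cycs, cytochrome c itself, stood at 292 and 264 RPM against 355 and 239.8 RPM with overlapping groups (log2 fold change −0.07, adjusted p = 0.843 in limma). A set of 12 genes held the 7 nuclear core subunits of complex I, Sdha, Sdhb, Uqcrc1, Uqcrc2 and Uqcrfs1. Cyc1, which the symbol rule does not match, was not in it. The median log2 fold change of this set was −0.48, where that of all tested genes was −0.47. Over the 25 complex I subunits of the Nduf a, b and c names it was −0.15. After median-of-ratios scaling the medians were 0.02 for the set, 0.02 for all tested genes and 0.35 for the 25 subunits. The medians of the set and of the 25 subunits thus turned in sign, and that of the set stayed the lower.

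Complex V, the ATP synthase, had 1 called member, and that one is not part of the enzyme. Atp5sl, now named Dmac2 and known as an assembly factor for the membrane arm of complex I, stood at 60.7 and 67.3 RPM in Reg4+ DCS cells against 122 and 104 RPM in Lgr5+ cells (log2 fold change −0.81, adjusted p = 0.0289 in limma). The call was lost after median-of-ratios scaling, in edgeR and without each library other than Lgr5+ replicate 2. Atp5s, coupling factor B, stood at 8.14 and 11.3 RPM against 19.0 and 15.5 RPM without a call. Atp5b and Atp5a1, the catalytic and regulatory subunits of the F1 head, were the most abundant, Atp5b at 1241 and 1227 RPM against 1561 and 1547 RPM and Atp5a1 at 951 and 850.3 RPM against 1116 and 1161 RPM. Both had the Lgr5+ libraries above but did not pass the test (log2 fold changes −0.33 and −0.34). Atp5e, the epsilon subunit at the foot of the central stalk, lay the other way at 454 and 561 RPM against 346 and 355 RPM (log2 fold change 0.53, adjusted p = 0.104 in limma). It passed as higher there after median-of-ratios scaling and in edgeR (adjusted p = 0.0171). Atp5f1, a subunit of the outer stalk, stood at 77.4 and 77.5 RPM against 73.8 and 61.7 RPM (0.20, 0.525), and passed as higher in Reg4+ DCS cells after median-of-ratios scaling (adjusted p = 0.0443 in limma).

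The c subunit of the membrane ring is made from 3 genes whose mature proteins are the same, so their transcripts may share reads in the coding part. Atp5g3 stood at 707 and 789 RPM in Reg4+ DCS cells against 785 and 701 RPM in Lgr5+ cells, Atp5g1 at 445 and 419 RPM against 488 and 472 RPM, and Atp5g2 at 297 and 279 RPM against 318 and 538 RPM. The share of Atp5g3 in their sum was 48.8% and 53.1% against 49.3% and 41.0%, that of Atp5g1 30.7% and 28.2% against 30.7% and 27.6%, and that of Atp5g2 20.5% and 18.7% against 19.99% and 31.5%, so that none of the shares separated the groups (exact two-sided permutation p = 0.667 for each). The Atp5g2 value of Lgr5+ replicate 2 stood apart from the other 3 libraries, and Atp5g2 was called higher in Lgr5+ cells only in the fit without Lgr5+ replicate 1. Atp5l, a subunit at the dimer interface, stood at 317 and 274 RPM against 331 and 377 RPM, and its isoform Atp5l2 was not analysed here.

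Factors that are not subunits were counted apart from the subunits, with no test between both groups. Of the 10 factors 5 were called higher in Lgr5+ cells in limma, where 26.9% of all genes were, and 2 were after median-of-ratios scaling and 2 in edgeR. None was called higher in Reg4+ DCS cells in any of these fits, and the count in limma at an unadjusted p under 0.05 was 0. Their summed level in Reg4+ DCS cells was 0.610 times that in Lgr5+ cells. Of the 77 tested subunits and cytochrome c, 5 were called higher in Lgr5+ cells and 1 higher in Reg4+ DCS cells in limma. These counts became 2 and 9 after median-of-ratios scaling and 2 and 4 in edgeR. Over all genes the shares were 26.9% and 7.18% in limma, 12.7% and 15.6% after that scaling, and 13.4% and 13.7% in edgeR. The summed level of subunits and cytochrome c in Reg4+ DCS cells was 0.913 times that in Lgr5+ cells. The median log2 fold change was −0.79 for the factors and −0.15 for the subunits, or −0.30 and 0.35 after median-of-ratios scaling. The factors were also lower in level, with a median of 22.1 RPM against 241 RPM, and the part of that difference in level was not tested.

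Other genes of the pathway, from lists that exclude the members, were read from the same fit. Of 96 tested genes 13 were called higher in Lgr5+ cells and 1 higher in Reg4+ DCS cells, against the 26.9% and 7.18% of all genes given above. After median-of-ratios scaling the counts were 5 and 9, in edgeR they were 5 and 7, and without Reg4+ DCS replicate 1 they were 3 and 0. Among 35 further assembly factors 3 were called, all higher in Lgr5+ cells: Lrpprc, which stabilises mitochondrial messenger RNA (8.85 and 15.6 RPM against 33.2 and 28.7 RPM, log2 fold change −1.32, adjusted p = 0.0188 in limma), Oxa1l, which inserts proteins into the inner membrane (22.7 and 30.04 RPM against 62.8 and 61.5 RPM, −1.22, 0.00946), and Ecsit, the partner of Ndufaf1 (17.8 and 16.0 RPM against 27.1 and 36.2 RPM, −0.85, 0.0480). Of these 3, Oxa1l kept its call after median-of-ratios scaling. The median over these 35 was −0.26. After median-of-ratios scaling 1 of them was called higher in Lgr5+ cells and 6 higher in Reg4+ DCS cells. Of all tested genes 12.7% and 15.6% were called so. Among 6 other subunits and regulators of the complexes, such as Cyc1 and Atpif1, 0 were called in limma, in limma after median-of-ratios scaling and in edgeR, with 1 at an unadjusted p under 0.05.

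Of 14 genes for the upkeep and transcription of mitochondrial DNA 3 were called, all higher in Lgr5+ cells, and the median was −0.64. They were the protease Lonp1 (73.4 and 113 RPM against 192 and 211 RPM, log2 fold change −1.13), the RNA polymerase Polrmt (12.8 and 19.0 RPM against 34.8 and 35.6 RPM, −1.13) and the single-strand binding protein Ssbp1 (23.0 and 29.1 RPM against 41.9 and 56.3 RPM, −0.88). None of these 3 held after median-of-ratios scaling. Of 16 tested regulators of respiratory genes 2 were called higher in Lgr5+ cells and the median was −0.56. Esrrg, an estrogen-related receptor, stood at 1.62 and 2.06 RPM against 10.9 and 10.6 RPM (log2 fold change −2.05, adjusted p = 0.00303 in limma) and held after median-of-ratios scaling. Nrf1, nuclear respiratory factor, stood at 13.4 and 18.1 RPM against 33.8 and 42.0 RPM (−1.22, 0.0147) and did not hold (adjusted p = 0.0629). Ppargc1a, a coactivator of respiratory genes that was named after its values were seen, stood at a mean of 12.6 RPM against 12.8 RPM.

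Inner membrane and carrier genes completed these lists. Phb and Phb2, the prohibitins, which form rings in the inner membrane, were called higher in Lgr5+ cells among 9 genes that shape the membrane folds. Phb stood at 72.1 and 72.1 RPM against 201 and 188 RPM (log2 fold change −1.42, adjusted p = 0.00238 in limma) and Phb2 at 217 and 221 RPM against 514 and 556 RPM (−1.28, 0.00359), and both held after median-of-ratios scaling. Among 7 genes for the exchange of ADP and ATP and for outer membrane channels, Ckmt1, mitochondrial creatine kinase, was called higher in Reg4+ DCS cells at 579 and 620.5 RPM against 364 and 304 RPM (0.85, 0.0228). Slc25a4, the ADP/ATP carrier known from heart and muscle, was called higher in Lgr5+ cells at 13.4 and 11.7 RPM against 27.3 and 23.9 RPM (−0.97, 0.0304), and lost the call after median-of-ratios scaling (adjusted p = 0.209 in limma) and in edgeR, while Ckmt1 kept it after that scaling. Among 9 genes for uncoupling and other entries of electrons, Prodh, which oxidises proline, and Dhodh, which acts in pyrimidine synthesis, were called higher in Lgr5+ cells (log2 fold changes −1.48 and −1.24). After median-of-ratios scaling Prodh kept its call and Dhodh lost it (adjusted p = 0.108 in limma).

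Beside the proteins of ribosomes, the median of the members lay higher on both scales. Of 76 mitochondrial ribosomal protein genes 17 were called higher in Lgr5+ cells and 0 higher in Reg4+ DCS cells in limma (0 also at an unadjusted p under 0.05), with a median log2 fold change of −0.59. These counts became 2 and 3 after median-of-ratios scaling and 3 and 1 in edgeR. Of 72 tested cytosolic ribosomal protein genes 26 were called higher in Lgr5+ cells in limma, with a median of −0.71, and 0 were called in either direction after median-of-ratios scaling and in edgeR. Over all genes 26.9% were called higher in Lgr5+ cells in limma. The medians after median-of-ratios scaling were −0.09 and −0.20, against 0.26 for the members. These are descriptions of lists, and no test between lists was made.

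Upstream sequence was available for 76 of the 88 members in windows of RefSeq, build GRCm38.p6, that run from 250 bases before to 50 bases after a start. The letters of 8 motifs were searched on both strands, and a gene counted where any of its windows held the motif. Nuclear respiratory factor 1, GABPA and YY1 are known regulators of respiratory genes. The NRF1 core (GCATGCGC) was found in 13 members (17.1%) against 3.05% of 27025 genes, the ETS site bound by GABPA (CCGGAAG) in 17 (22.4%) against 9.93%, and a YY1 site (AAGATGGCG) in 8 (10.5%) against 1.64%. The Sp1 box (GGGCGG) was found in 34 (44.7%) against 38.2%, the CCAAT box (CCAAT) in 34 (44.7%) against 41.1%, and the site of estrogen-related receptors (AAGGTCA) in 8 (10.5%) against 5.38%. The TATA box (TATAAA) was found in 6 (7.89%) against 15.7%, and the E box (CAGCTG) in 6 (7.89%) against 18.3%. The CCAAT box and the E box were added after the sequences were seen. The median GC content of the windows was 58.5% for members and 52.7% for all genes, and GC-rich motifs are met more often in GC-rich sequence, so these shares are a description only. Cycs is shown because its upstream stretch holds the NRF1 core, with that core and a CCAAT box in capitals.
Cycs, chr6:50566570-50566679 (- strand): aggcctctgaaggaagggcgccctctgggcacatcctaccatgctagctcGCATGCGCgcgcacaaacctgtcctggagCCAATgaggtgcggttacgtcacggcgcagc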

How the data were processed

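The authors deposited 1 table of RPM per gene for 4 libraries, and each column sums to 1000000. Per the submitters' processing notes, reads were aligned with BWA 0.6.2-r126 to mm10, and the sources used here do not give annotation, counting, strand or molecular identifiers. Values in the Lgr5+ columns were whole multiples of 1 read (100% within 0.01 reads), and those in the Reg4+ DCS columns were decoded as means of 2 scaled parts.

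Genes that reached 5 RPM in 2 or more libraries (10183 of 14519) were tested with limma 3.58.1 in R 4.3.3 on log2(RPM + 1), with a trend and group as the only term. P-values were adjusted by the Benjamini-Hochberg method over all tested genes. Folds are ratios of mean RPM. Alternatives were other pseudocounts and filters, median-of-ratios scaling, no trend, a replicate block, leaving out each library, and edgeR 4.0.16 on recovered reads. The fits were tested on simulated data. Members and gene lists were chosen with earlier results of these data known. Genes named with values were all isoform pairs, the 3 most abundant and the extreme members of each complex, all factors, called members, complex II, Cycs, and up to 3 called genes per other list. Other genes named, and those called only under an alternative, were chosen after their values were seen. Annotation came from GENCODE (87 of 88 members matched, 1 through a synonym), and 37 members overlap another gene. A gene that meets this rule is not reported here by name.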

Additional observations from a re-analysis of the deposited data

How the results depend on the processing

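The count of members higher in Lgr5+ cells was 10, became 4 with median-of-ratios scaling and 4 in edgeR, and ranged from 4 to 7 when 1 library was left out. The count higher in Reg4+ DCS cells was 1, and became 2 without a filter on low values (Cox8b entered), 9 with median-of-ratios scaling and 4 in edgeR, and stayed at 1 in each fit without 1 library. Among other genes of the pathway, whose alternatives were added after the data were seen, the 13 higher in Lgr5+ cells became 5 with median-of-ratios scaling and 5 in edgeR and ranged from 3 to 12 without 1 library, and the 1 higher in Reg4+ DCS cells became 9 and 7 and ranged from 0 to 1. The scaling moves the median of all genes from −0.47 to 0.02, which by construction shifts calls toward Reg4+ DCS cells, and for the other changes the cause was not tested. A replicate block gave 11 and 2 members and 21 and 1 other genes. Libraries of the same number shared little, with a correlation of deviations of 0.21 over 10183 genes, and the labels do not say that a number marks a shared round. The median of the members lay 0.22 above that of all genes, and 0.11 to 0.38 above it without 1 library. None of the named members changed its sign while called. Depth limits Cox6b2 and Cox8b most, with 2 reads and 0 reads in 1 group.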
